A study of Mus musculus with 68 samples.

Results

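The 43 genes described here encode proteins of mitosis and cytokinesis, the steps in which a cell condenses, separates and parts its chromosomes. They were named by symbol, and each was read through a probe set annotated to that symbol alone. All 43 had such a probe set, out of 30142 genes that did, and each had 1, so no choice between probe sets was needed. The expression of these genes was measured in the uterus of ovariectomized female mice on 68 arrays, which fall into 25 groups of 2 or 3. By its title, the series concerns oestrogen receptor alpha (ERα) and the uterine response to insulin-like growth factor 1 (IGF1).

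There were 5 kinds of mice. C57Bl6 wild types gave 14 arrays. Ex3aERKO mice, labelled Esr1-null (Esr1 is the gene of ERα), gave 11 arrays and their wild-type littermates 14. ERaUtcKO mice, of genotype Esr1f/f;PgrCre+, gave 15 arrays and their littermates, labelled wild type with no word on Cre, 14. In this line Cre is driven from the progesterone receptor locus, so cells that never express that receptor may keep Esr1. Each kind of mouse received vehicle (100 µl saline), oestradiol (E2, 250 ng) or IGF1, the last as an injection of 50 µg or from an implanted pump loaded at 0.5 mg/ml. The labels do not say which mice had the pump. Tissue was taken 2 h or 24 h after E2 or IGF1 and 24 h after vehicle, so a 2 h group differs from vehicle in hours as well as in treatment. Ages and the number of animals behind a sample are not given in the sources used here, and p-values measure the spread between samples as labelled.

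Ovarian hormones drive waves of cell division in the uterus, and E2 given to an ovariectomized mouse is a classic stimulus for mitosis of the epithelium. ERα is the receptor through which E2 acts in this tissue, and IGF1 made in the stroma is a known growth signal between stroma and epithelium. Most genes of mitosis are held silent in resting cells and transcribed in late S phase and G2. Their promoters commonly hold CCAAT boxes, bound by NF-Y, and the CHR element, bound by the DREAM and MuvB complexes.

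Promoter bases of 5 members are printed to show both kinds of element, in Ube2c, the member with the largest E2 response over the wild types, and in Cdk1, Cdc20 and Kif11, beside Birc5, whose bases hold neither. They are the 150 bases before the transcription start in RefSeq (GRCm38.p6), 5′ to 3′ on the strand of the gene, with capitals for CCAAT, the CHR words TTTGAA and TTCGAA and the E2F words TTTGGCGC, TTTCGCGC and TTTCCCGC on either strand.
Ube2c, chr2:164769779-164769928, plus strand: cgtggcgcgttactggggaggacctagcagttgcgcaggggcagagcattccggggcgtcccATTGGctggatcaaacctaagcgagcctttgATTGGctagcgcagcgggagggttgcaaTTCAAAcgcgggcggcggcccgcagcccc
Cdk1, chr10:69352913-69353062, minus strand: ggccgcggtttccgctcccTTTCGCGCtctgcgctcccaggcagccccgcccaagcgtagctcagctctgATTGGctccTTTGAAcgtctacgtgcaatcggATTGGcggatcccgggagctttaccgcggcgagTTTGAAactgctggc
Cdc20, chr4:118437344-118437493, minus strand: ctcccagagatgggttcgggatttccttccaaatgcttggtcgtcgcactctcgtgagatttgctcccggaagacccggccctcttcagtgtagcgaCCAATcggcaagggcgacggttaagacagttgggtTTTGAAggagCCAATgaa
Kif11, chr19:37376232-37376381, plus strand: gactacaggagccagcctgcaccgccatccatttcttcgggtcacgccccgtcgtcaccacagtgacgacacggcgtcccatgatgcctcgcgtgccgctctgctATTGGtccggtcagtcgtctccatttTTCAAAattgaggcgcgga
Birc5, chr11:117849087-117849236, plus strand: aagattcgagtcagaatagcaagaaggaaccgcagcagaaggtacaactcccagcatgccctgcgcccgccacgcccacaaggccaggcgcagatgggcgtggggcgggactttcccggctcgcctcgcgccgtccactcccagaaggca

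The first CHR word lay 29 bases before the start in Ube2c, 18 bases before it in Cdc20, 19 bases before it in Kif11, and 71 and 15 bases before it in Cdk1. Of the 43 members, 35 were in the promoter table. Over the 250 bases before the start, 22 of the 35 (62.9%) held CCAAT on either strand, against 34.5% of 27025 genes in the table. A CHR word was in 13 members (37.1%, against 17.4%), an E2F word in 4 (11.4%, against 1.59%), and both CCAAT and a CHR word in 10 (28.6%, against 6.21%). The median share of G and C was 61.6% in the members' windows and 52.0% in all. For 16 of the 35 members the annotated gene begins upstream of the start used. A word is a match of letters, and no binding was measured here.

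The deposited values are log2 intensities, whose general level differed between the 3 mouse sets (C57, Ex3aERKO and ERaUtcKO), and each comparison therefore stayed inside 1 set or had the set as a model term. Arrays give no depth, and the number of arrays limits the precision. Esr1 itself was lower in the knockouts. Under vehicle its level was 10.08 to 10.29 in Ex3aERKO against 12.43 to 12.73 in littermates, and 10.86 to 11.10 in ERaUtcKO against 12.17 to 12.25. The probe set may cover parts of Esr1 that were not deleted. "Rose" and "fell" below stand for a Benjamini-Hochberg adjusted p under 0.05 in limma over all 30142 genes, two-sided, and values are log2 differences with their standard error (SE) unless a level is named.

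In resting uterus the members stood near the level of the median gene, or above it in C57. The median of their vehicle means was 7.74 in C57, 6.40 in the Ex3aERKO littermates and 6.78 in the ERaUtcKO littermates. The median over all genes on those arrays averaged 7.05, 6.24 and 6.77. The median of the 43 genes on an array was 7.53, 7.63 and 7.91 in the C57 vehicle group, 6.41 and 6.32 in the Ex3aERKO littermates, and 6.69, 6.91 and 6.76 in the ERaUtcKO littermates. Under vehicle, 5 members in the C57 set, 9 in the Ex3aERKO littermates and 8 in the ERaUtcKO littermates had a mean below the 95th percentile of the antigenomic controls, designed to hybridise to nothing in the mouse. After E2 for 24 h that number was 0 in all 3 sets. A rise from such a level can be understated. Cdc25c, a phosphatase that activates CDK1, had the lowest vehicle mean in each set, and Smc4, the condensin ATPase, the highest. Mki67, the proliferation antigen that coats mitotic chromosomes, stood at 10.98 under vehicle in C57 and at 7.71 and 7.69 in the littermates of the 2 lines.

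The median of the 43 genes after 24 h of E2 was 9.98, 10.56 and 10.24 in C57, 9.06, 9.61 and 9.32 in the Ex3aERKO littermates and 9.67, 9.42 and 9.35 in the ERaUtcKO littermates. After 24 h of IGF1 it was 8.90, 9.13 and 9.34 in C57, 7.57, 7.59 and 7.69 in the Ex3aERKO littermates and 8.03, 8.38 and 7.99 in the ERaUtcKO littermates. In each wild-type set the 3 E2 arrays lay above the 3 IGF1 arrays, and these above every vehicle array. In Ex3aERKO mice the median was 6.15 and 6.28 under vehicle, 6.22 and 6.26 after E2, and 6.70, 7.49 and 6.71 after IGF1. In ERaUtcKO mice it was 6.46, 6.60 and 6.44 under vehicle, 6.28, 6.65 and 6.62 after E2, and 6.42, 7.35 and 7.01 after IGF1. The E2 arrays of both knockouts thus lay among or beside their vehicle arrays, and 1 IGF1 array of ERaUtcKO did too. The spread between arrays of a group, pooled over the 25 groups, was 0.23 (SD).

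**Figure D1:**
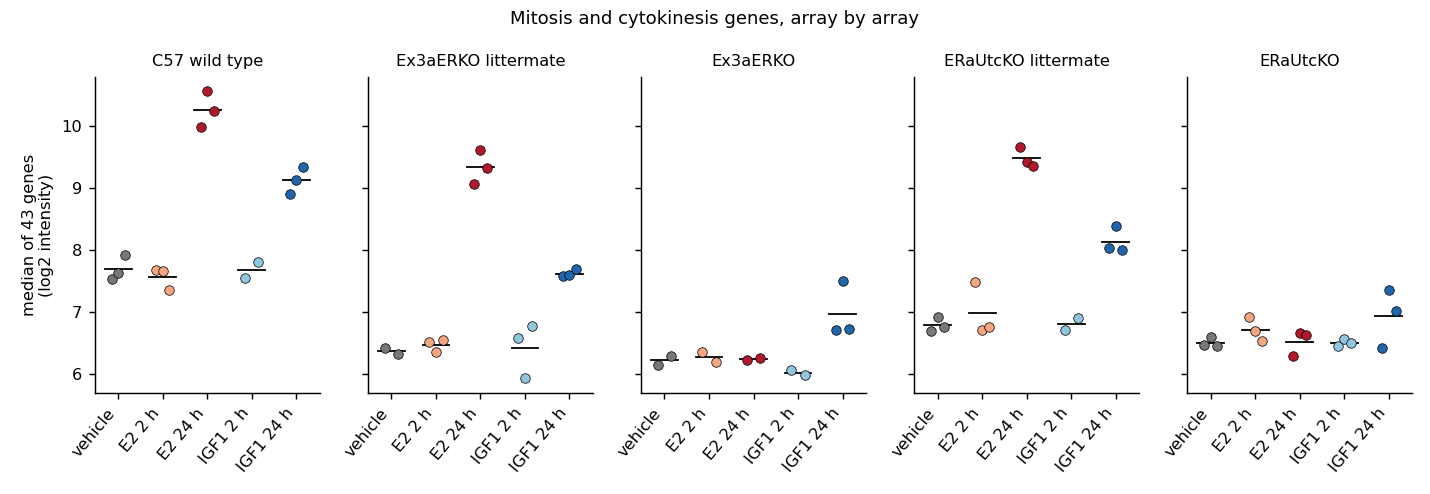
Each point is the median log2 intensity of the 43 genes on 1 array (vertical axis), by treatment (horizontal axis) in each kind of mouse, and bars are group means. The 24 h E2 arrays reach 9.06 or more in the wild types and stay at 6.65 or less in both knockouts. The 24 h IGF1 arrays of the knockouts run from 6.42 to 7.49.

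At 2 h the group stayed near vehicle. The median was 7.67, 7.66 and 7.36 after E2 and 7.54 and 7.80 after IGF1 in C57. In the Ex3aERKO littermates it was 6.52, 6.35 and 6.54 after E2 and 6.57, 5.92 and 6.77 after IGF1, where replicate 2 lay lowest of all 14 littermate arrays. In the ERaUtcKO littermates it was 7.48, 6.70 and 6.76 after E2, with replicate 1 apart from the others, and 6.70 and 6.90 after IGF1. The knockouts gave 6.34 and 6.18 after E2 and 6.05 and 5.98 after IGF1 in Ex3aERKO, and 6.92, 6.69 and 6.52 after E2 and 6.44, 6.56 and 6.50 after IGF1 in ERaUtcKO.

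At 24 h, E2 raised 42 of the 43 members in wild types, when 24.5% of all genes rose (9 E2 and 8 vehicle arrays, mouse set in the model). The median difference of the members was 2.73 (6.62-fold), against -0.07 over all genes. The middle 50% of members lay between 1.93 and 3.33. In C57, 42 members had all 3 E2 arrays above all 3 vehicle arrays, where 25.3% of all genes did.

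Over the 3 wild-type sets together, and in each littermate set, the largest rise was that of Ube2c, the ubiquitin-conjugating enzyme that serves the anaphase-promoting complex. In C57 alone it rose by 3.23, less than Kif11 (3.70), Plk1 (3.57), Kif20a (3.56), Ect2 (3.54), Top2a (3.52) and Mki67 (3.51). Ube2c also rose slightly less there than Pbk and Tpx2. Its level was 8.52, 8.44 and 9.09 under vehicle and 11.70, 12.54 and 11.51 after E2 in C57. In the Ex3aERKO littermates it went from 7.41 and 7.54 to 12.80, 14.29 and 13.44, and in the ERaUtcKO littermates from 7.55, 7.51 and 7.61 to 13.91, 13.22 and 13.35. No E2 array overlapped a vehicle array of its set, and the fitted rise was 5.03 ± 0.31 (SE, 32.6-fold, limma adjusted p = 3.41e-17). Cdc20, the activator of the same ligase, rose by 2.74 ± 0.14.

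Mki67 and Top2a, the topoisomerase that untangles sister chromatids, came next in the fit over the 3 sets. Mki67 went from 10.83, 10.59 and 11.52 to 14.29, 14.85 and 14.31 in C57, from 7.87 and 7.55 to 12.41, 13.12 and 12.89 in the Ex3aERKO littermates, and from 7.81, 7.63 and 7.62 to 12.82, 12.33 and 12.35 in the ERaUtcKO littermates. Its rise was 4.44 ± 0.27 (limma adjusted p = 5.46e-17). Top2a went from 9.18, 9.12 and 9.74 to 12.56, 13.37 and 12.68 in C57, from 8.16 and 7.68 to 12.49, 12.96 and 12.86, and from 7.97, 8.28 and 7.87 to 13.03, 12.64 and 12.62 in the littermates. It rose by 4.35 ± 0.27. The condensin subunits, which fold chromosomes into rods, rose less, namely Ncapg by 3.07, Ncaph by 2.62, Smc2 by 2.20, Ncapg2 by 1.89 and Smc4 by 1.06 ± 0.09.

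All 9 centromere and kinetochore genes rose, with a median of 2.73. They ran from the kinetochore motor Cenpe, at 3.55 ± 0.18, down to Cenpa, the centromeric histone, at 1.13 ± 0.11. The 4 subunits of the NDC80 complex, which grips microtubules, rose by 2.90 (Ndc80), 2.82 (Spc24), 2.73 (Nuf2) and 1.92 (Spc25). Cenpa was 7.63, 7.63 and 7.72 under vehicle and 8.30, 8.88 and 8.54 after E2 in C57, so its arrays too were apart.

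Among the kinases and CDK1 activators, 7 of 8 rose. The mitotic kinase Pbk led with 3.71 ± 0.17, and Plk1, the polo kinase of mitotic entry, rose by 3.39 ± 0.19, from 7.51, 7.64 and 8.07 to 11.05, 11.92 and 10.96 in C57. Cdk1, the kinase that sets off mitosis, rose by 2.57 ± 0.16, from 7.30, 7.39 and 7.60 to 9.18, 9.99 and 9.35. Melk (2.73), Cdc25c (2.44), the spindle pole kinase Aurka (1.92) and the centriole kinase Plk4 (1.28) followed. The exception was Cdc25b, the phosphatase thought to start CDK1 activation, at 0.00 ± 0.10 (adjusted p = 0.997), with 9.28, 9.15 and 9.29 under vehicle and 9.03, 9.27 and 8.94 after E2 in C57.

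The chromosomal passenger complex, which corrects faulty attachments, rose in all 3 subunits measured here. Aurkb, its kinase, rose by 1.94 ± 0.11, its scaffold Incenp by 1.94 and Birc5, also known as survivin, by 1.43 ± 0.10. Birc5 went from 5.91, 6.17 and 6.33 to 7.08, 7.19 and 7.27 in C57, and Aurkb from 6.10, 6.24 and 6.44 to 8.37, 8.90 and 8.55.

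All 7 spindle motors and microtubule proteins rose, with a median of 3.16. Kif11, the kinesin that pushes spindle poles apart, went from 8.44, 8.48 and 9.09 to 12.04, 12.85 and 12.24 in C57 and rose by 4.14 ± 0.20 (adjusted p = 4.66e-20). Kif4 rose by 3.34, the spindle assembly factor Tpx2 by 3.32 and Kif15 by 3.16. Nusap1 rose by 2.84, the microtubule-depolymerizing Kif2c by 2.02 and Kif18a by 1.31.

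The 7 genes of the central spindle and cytokinesis rose as well, with the same median of 3.16. Ect2, the exchange factor that switches on RhoA at the cleavage furrow, led with 3.71 ± 0.18. Kif23 (3.61), the furrow scaffold Anln (3.57) and Prc1, which bundles the central spindle (3.16 ± 0.18), were close to it. Kif20a (2.60), Kif20b (2.11) and Racgap1, the partner of Kif23 (2.03), were lower. Prc1 was 8.23, 8.25 and 8.78 under vehicle in C57 and 11.25, 12.00 and 11.43 after E2.

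IGF1 at 24 h raised 41 members, when 19.3% of all genes rose (9 IGF1 and 8 vehicle arrays). The median difference was 1.22 (2.33-fold), against -0.06 over all genes. Mki67 rose by 2.81 ± 0.27 (limma adjusted p = 1.09e-10), Top2a by 2.71 ± 0.27 and Kif11 by 2.24 ± 0.20. After IGF1, Mki67 was at 13.16, 13.48 and 14.14 in C57, 10.39, 10.65 and 10.51 in the Ex3aERKO littermates and 10.83, 10.98 and 10.48 in the ERaUtcKO littermates, above each vehicle array of its set. Ube2c rose by 2.12 ± 0.31, to 10.14, 10.33 and 10.51 in C57.

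Smallest among the members raised by IGF1 were Smc4 (0.39 ± 0.09), Kif18a (0.55) and Birc5 (0.65). Cenpa differed by 0.24 ± 0.11 (adjusted p = 0.0685) and Cdc25b by 0.02 ± 0.10 (adjusted p = 0.894). By role, the chromosome and condensin genes rose 7 of 7 (median 1.48), the centromere and kinetochore genes 8 of 9 (1.26), and the kinases and CDK1 activators 7 of 8 (0.94). The passenger complex rose 3 of 3 (0.74), the spindle motors 7 of 7 (1.46), the cytokinesis genes 7 of 7 (1.56) and both anaphase-promoting genes (1.52).

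**Figure D2:**
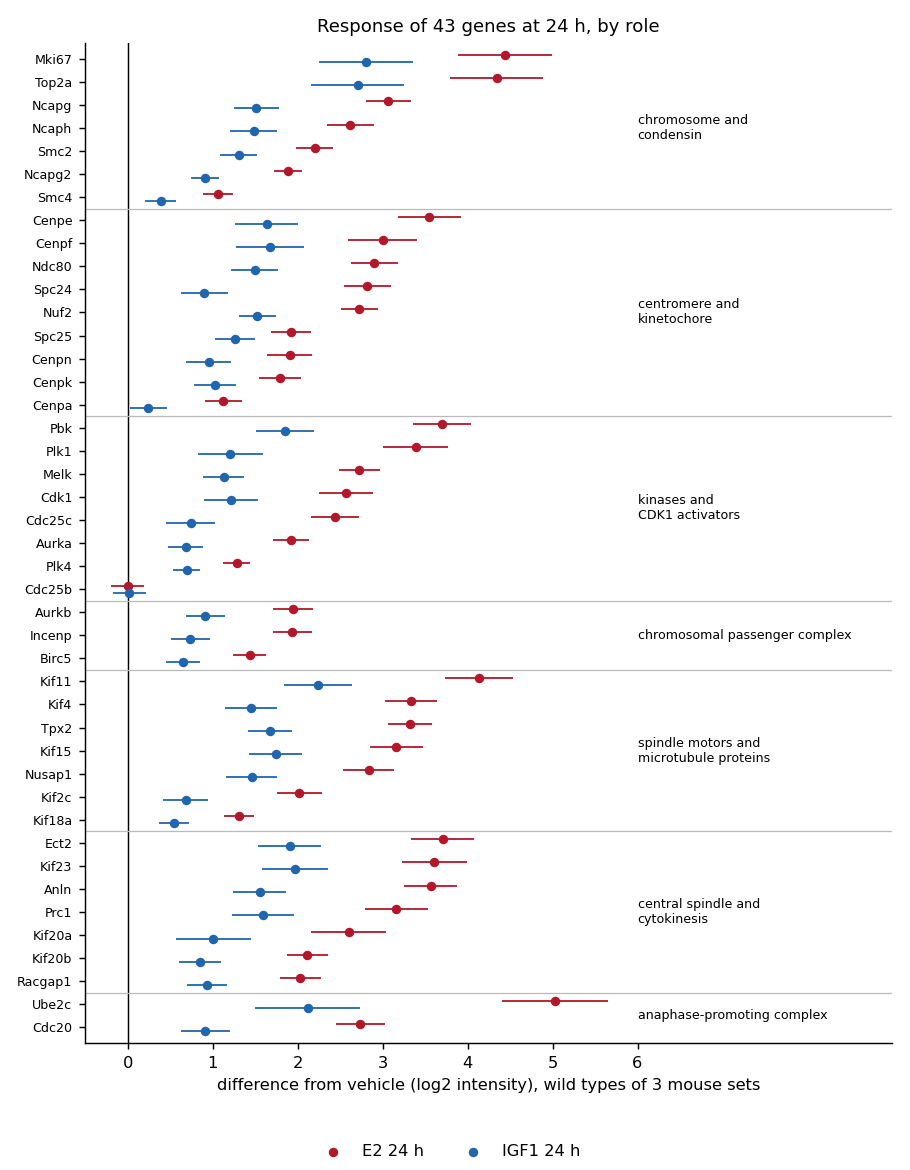
The 43 genes by role (vertical axis) with their 24 h difference from vehicle in wild types (log2, horizontal axis), points being estimates and bars 95% confidence intervals. Every gene but Cdc25b lies further right after E2 (red) than after IGF1 (blue).

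After IGF1, Top2a stood at 11.42, 11.47 and 11.69 in C57 and Kif11 at 10.75, 10.81 and 11.10. In the Ex3aERKO littermates Kif11 was 6.81 and 6.68 under vehicle, 8.52, 9.03 and 8.86 after IGF1 and 10.77, 11.66 and 11.23 after E2. In the ERaUtcKO littermates it was 6.78, 6.93 and 6.87, then 9.31, 9.62 and 9.06, and 11.44, 10.88 and 10.99. The 3 conditions of Kif11 thus did not overlap in any wild-type set.

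Cdk1 was 8.02, 8.42 and 8.55 after IGF1 in C57. In the Ex3aERKO littermates it was 6.66 and 6.37 under vehicle, 7.67, 7.72 and 7.96 after IGF1 and 8.72, 10.08 and 9.07 after E2, and in the ERaUtcKO littermates 6.67, 6.59 and 6.68, then 7.91, 8.41 and 8.18, and 9.67, 9.42 and 9.51. Its conditions were apart in each set. Prc1 was 9.99, 10.42 and 10.46 after IGF1 in C57, 8.06, 8.15 and 8.33 in the Ex3aERKO littermates and 8.93, 9.18 and 8.84 in the ERaUtcKO littermates. In those littermates it had been 7.02 and 6.89, and 7.22, 7.44 and 7.29, under vehicle, and it reached 9.65, 10.38 and 10.13, and 10.97, 10.41 and 10.31, after E2. Prc1 followed the same order of vehicle, IGF1 and E2 without overlap.

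Plk1 was 6.47 and 6.63 under vehicle, 7.37, 7.50 and 7.41 after IGF1 and 9.02, 10.82 and 9.69 after E2 in the Ex3aERKO littermates. In the ERaUtcKO littermates it was 6.94, 6.99 and 6.89, then 7.94, 7.92 and 7.98, and 10.95, 9.80 and 9.93. The 3 IGF1 arrays of Plk1 lay close together and nearer to vehicle than to E2.

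The smaller responses of Aurkb, Birc5 and Cenpa can be read on single arrays too. Aurkb was 7.26, 7.65 and 7.61 after IGF1 in C57, 5.94, 5.87 and 6.12 in the Ex3aERKO littermates, against 5.39 and 5.12 under vehicle, and 6.35, 6.46 and 6.32 in the ERaUtcKO littermates, against 5.64, 5.61 and 5.64. After E2 it was 6.92, 7.30 and 7.08, and 7.43, 7.18 and 7.15, in the 2 littermate sets. Birc5 was 6.36, 6.58 and 6.65 after IGF1 in C57, 6.59, 6.18 and 6.39 in the Ex3aERKO littermates and 6.74, 6.74 and 6.72 in the ERaUtcKO littermates. Under vehicle the littermates had 5.49 and 5.86, and 5.92, 6.0 and 5.72, and after E2 they had 7.11, 7.64 and 7.14, and 7.82, 7.46 and 7.30. Both genes kept the order of the conditions in each set.

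Cenpa was 7.88, 7.91 and 8.03 after IGF1 in C57, above vehicle. In the Ex3aERKO littermates it was 7.32, 7.68 and 7.16, against 6.85 and 6.96. In the ERaUtcKO littermates it was 7.27, 7.49 and 7.19, among the vehicle values of 7.44, 7.29 and 7.19. After E2 it was 7.74, 8.68 and 8.10, and 8.89, 8.34 and 8.43, in the littermate sets, above every other array of its set at 24 h.

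The comparison of E2 with IGF1 at 24 h uses no vehicle array. Of the members 42 were higher after E2, when 15.3% of all genes were, with a median difference of 1.38 (2.60-fold). The difference was largest for Ube2c (2.91 ± 0.30), Plk1 (2.18 ± 0.18) and Anln (2.01 ± 0.15). It was smallest among the called members for Plk4 (0.59), Spc25 (0.66) and Smc4 (0.68), and Cdc25b differed by -0.02 ± 0.09 (adjusted p = 0.927). Plk1 illustrates the gap, with 9.39, 9.53 and 9.44 after IGF1 in C57 against 10.96 or more after E2. In C57, 41 members had all E2 arrays above all IGF1 arrays, where 13.4% of all genes did, and in the Ex3aERKO littermates 42 did, where 17.5% of all genes did.

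The 3 wild-type sets share no arrays, so the order of the members can be set side by side. Over the 43 genes the E2 responses of the 2 littermate sets had Pearson r = 0.97 and Spearman rho = 0.97. C57 against them gave r = 0.81 and 0.79, with rho = 0.79 for both. For IGF1 the values were r = 0.96 between the littermate sets, and 0.77 and 0.81 against C57, with rho = 0.94, 0.71 and 0.78. These describe order across genes, which are not independent replicates.

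A test of the difference, chosen after seeing the data, compared the C57 response with the mean of the littermate sets. For E2 at 24 h, 4 members responded more in C57 (5.08% of all genes did) and 6 less (6.17% did). Larger in C57 were Kif20a, by 1.47 ± 0.24 (adjusted p = 0.000171), Cenpn, by 0.85, Kif2c, by 0.68, and Aurkb, by 0.62. Smaller were Ube2c, at -2.75 ± 0.48 (adjusted p = 0.000406), Cdc25c (-0.91), Incenp (-0.81), Spc24 (-0.79), Cenpk (-0.65) and Birc5 (-0.59). For IGF1 at 24 h, Kif20a (1.23 ± 0.24) and Cenpn (0.72 ± 0.18) again responded more in C57, when 0.823% of all genes did. The vehicle levels also differed, as with Ube2c at 8.68 in C57 against 7.48 and 7.56, and their part in these differences was not tested. The kind of mouse cannot be told apart from anything else that differed between the sets. The median of the antigenomic controls was 4.31 in the C57 set, against 3.46 in the Ex3aERKO set and 3.65 in the ERaUtcKO set.

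At 2 h after E2, 4 members rose in wild types (17.2% of all genes did) and 4 fell (22.8% did), so neither share stood above the background. Tpx2 rose by 0.88 ± 0.13 (adjusted p = 2.27e-07), Prc1 by 0.60, Kif23 by 0.52 and Plk4 by 0.42. Tpx2 was at 8.12, 8.19 and 8.71 under vehicle in C57 and was higher on each 2 h E2 array than on every vehicle array in both littermate sets. On the 3 C57 arrays of 2 h E2 the deposited value of Tpx2 was 9.08 on each, the same to the last digit on a pair of them, and that of Plk4 was 9.05 and identical on all 3. Such repeats were common in C57, where a pair of arrays shared the value of a median of 698 genes (2.32%), against 1 gene in the other sets, and what made them was not tested. These 2 members therefore show no spread in that group, and no other member repeated a value within a group. Without the C57 set Tpx2 rose by 0.95 ± 0.14 (adjusted p = 5.06e-06) and Plk4 by 0.35 ± 0.11 (adjusted p = 0.00957). Kif23 did not separate in C57, with 8.37, 8.33 and 7.89 after E2 against 7.96, 8.05 and 8.42.

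Cdc25b fell at that time by 0.99 ± 0.10 on the log2 scale (adjusted p = 2.56e-11). It went from 9.28, 9.15 and 9.29 to 8.09, 7.85 and 8.04 in C57, from 7.23 and 7.58 to 6.44, 6.43 and 6.56 in the Ex3aERKO littermates and from 7.77, 7.49 and 7.70 to 6.89, 6.92 and 6.76 in the ERaUtcKO littermates, with no overlap. Cenpa (-0.37), Kif20b (-0.33) and Kif18a (-0.28) fell less. After IGF1 for 2 h no member rose (limma, 2 at an unadjusted p under 0.05), when 16.9% of all genes rose, and 4 fell, when 19.0% did. These were Kif20b (-0.55 ± 0.13), Kif18a (-0.45), Cenpa (-0.38) and Smc4 (-0.37).

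The response of Cdc25b to 2 h of E2 differed between knockouts and littermates in both lines, and no fall was called in either knockout. After 2 h of E2 it was 7.50 and 7.66 in Ex3aERKO, against 7.42 and 7.27 under vehicle. In ERaUtcKO it was 7.65, 7.83 and 7.56, against 8.06, 8.0 and 7.57. The response in the knockout exceeded that in littermates by 1.16 ± 0.27 (adjusted p = 0.00855) in Ex3aERKO, when 4.58% of all genes passed in that direction, and by 0.60 ± 0.20 (adjusted p = 0.0416) in ERaUtcKO, when 6.7% did. Cdc25b was the only member called in this comparison in either line. In the knockouts alone no member was called after 2 h of E2 (limma, 1 at an unadjusted p under 0.05 in Ex3aERKO and 0 in ERaUtcKO), when 0.149% and 0.491% of all genes were. In ERaUtcKO 40 of the 43 differences were above 0, with a median of 0.18 against -0.02 over all genes. All its E2 arrays lay above vehicle in 10 members (6.83% of all genes) and below in 0 (8.29%). In Ex3aERKO they lay above in 4 (15.1%) and below in 7 (19.5%).

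After 2 h of IGF1, Kif20b fell in both knockouts, by 0.94 ± 0.24 in Ex3aERKO (7.09% of all genes fell) and by 0.73 ± 0.16 in ERaUtcKO (16.2% fell), where Kif18a also fell, by 0.54 ± 0.13. Kif20b was 7.82 and 7.56 under vehicle and 6.86 and 6.64 after IGF1 in Ex3aERKO. In ERaUtcKO it was 7.74, 7.69 and 7.96 under vehicle and 6.79, 7.29 and 7.11 after IGF1.

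Under vehicle no member was called between knockout and littermates in either line, when 2.96% of all genes were in Ex3aERKO and 4.17% in ERaUtcKO. At an unadjusted p under 0.05 in limma, 1 member was higher in Ex3aERKO and 2 were lower in ERaUtcKO. The median difference was -0.14 and -0.20, against 0.02 and -0.05 over all genes. Mki67 had the lowest difference of the 43 in both lines, at -1.07 and -1.04, and was not called. It was 6.37 and 6.90 in Ex3aERKO and 6.70, 6.99 and 6.26 in ERaUtcKO, below every littermate vehicle array.

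Without ERα the E2 response at 24 h was not detected. In both lines 0 of 43 members were called, as were 0.0% of all genes in Ex3aERKO and 0.0% in ERaUtcKO. At an unadjusted p under 0.05 in limma 0 members passed in either line, and 4166 and 1151 of all 30142 genes did. The median difference was 0.04 in Ex3aERKO and -0.07 in ERaUtcKO. The littermates of the same experiments raised 42 members each, when 17.4% and 20.4% of all genes rose, by a median of 2.85 (7.22-fold) and 2.63 (6.18-fold). Ube2c was 7.16 and 6.83 after E2 in Ex3aERKO against 6.70 and 7.22 under vehicle, and 7.06, 7.66 and 7.15 in ERaUtcKO against 7.31, 7.52 and 7.25.

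Single members varied about 0 after E2, with none called. In Ex3aERKO the differences included 0.49 ± 0.29 for Cenpa, which is 38.7% of its littermate rise, 0.33 for Aurka, 0.32 for Nusap1 and -0.35 for Kif11. Both E2 arrays lay above both vehicle arrays in 8 members, where 30.4% of all genes did, and below them in 7, where 14.8% did. In ERaUtcKO 1 member had all E2 arrays above vehicle (3.87% of all genes) and 4 below (5.88%). Mki67 was 6.58 and 6.37 in Ex3aERKO and 5.78, 7.02 and 6.41 in ERaUtcKO. Top2a was 7.25 and 7.0, and 6.56, 7.31 and 6.92, in the 2 lines, and Kif11 6.04 and 5.99, and 6.14, 6.81 and 6.28. All of these lie below every E2 array of the littermates. Cdk1 was 6.68 and 6.16 in Ex3aERKO, against 6.24 and 6.49 under vehicle, and 6.39, 6.68 and 6.51 in ERaUtcKO, against 6.39, 6.49 and 6.56. Prc1 was 6.75 and 6.47, against 6.30 and 6.62, and 6.83, 7.07 and 7.11, against 7.02, 7.02 and 6.85. Their E2 and vehicle arrays overlapped in both lines.

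The test of the difference between knockout and littermate response was passed by 41 members in Ex3aERKO, when 10.5% of all genes were lower, and by 42 in ERaUtcKO, when 15.5% were. Largest in Ex3aERKO were Ube2c (-6.00 ± 0.88, adjusted p = 0.000145), Mki67 (-5.25) and Kif11 (-4.83), and in ERaUtcKO Ube2c (-6.01 ± 0.45, adjusted p = 2.34e-09), Mki67 (-5.06) and Top2a (-4.91). Smallest were Cdc25b (-0.11), Cenpa (-0.78 ± 0.39, adjusted p = 0.188) and Kif18a (-1.31) in Ex3aERKO, and Cdc25b (-0.27), Smc4 (-0.86) and Plk4 (-1.17) in ERaUtcKO. With 2 arrays in the Ex3aERKO vehicle and E2 groups the precision was modest. The outermost ends of the members' 95% intervals for the E2 difference in the knockout were -1.64 and 1.55 in Ex3aERKO, and -1.25 and 0.85 in ERaUtcKO.

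After 24 h of IGF1 some members rose in both knockouts, in ERaUtcKO at a share near that of all genes. In Ex3aERKO 20 rose and 0 fell, when 11.7% of all genes rose, with a median over the 43 of 0.67 (1.59-fold). Mki67 rose by 2.47 ± 0.64 (limma adjusted p = 0.0106), from 6.37 and 6.90 to 8.25, 10.69 and 8.38. Top2a rose by 2.25 ± 0.61, from 6.66 and 7.30 to 8.53, 10.52 and 8.65, and Ube2c by 2.11 ± 0.59, from 6.70 and 7.22 to 8.28, 10.57 and 8.35. All 3 IGF1 arrays were above both vehicle arrays for these genes, and replicate 2 was highest for each. Across the 43 genes, 33 had all IGF1 arrays above all vehicle arrays, where 24.2% of all genes did.

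Kif11 was 6.19 and 6.54 under vehicle and 7.13, 8.64 and 7.20 after IGF1, and Prc1 went from 6.30 and 6.62 to 7.16, 8.38 and 7.20, again with replicate 2 highest. Kif11 (1.29 ± 0.44), Kif23 (1.18), Prc1 (1.12 ± 0.33), Nusap1 (1.07), Smc2 (1.05), Tpx2 (1.04) and Ncapg (1.01) rose as well in Ex3aERKO. Smallest of the rises were Cenpn (0.49), Plk4 (0.54) and Incenp (0.66). Cdk1 differed by 0.56 ± 0.34, Plk1 by 0.55 ± 0.38, Aurkb by 0.36 ± 0.16 and Birc5 by 0.51 ± 0.20, none of them called. Cdk1 was 6.60, 7.38 and 6.79 after IGF1, Plk1 6.08, 7.48 and 6.49, Aurkb 5.31, 5.84 and 5.37 and Birc5 6.08, 6.31 and 5.73. The lowest differences were those of Cdc25b (-0.32), Smc4 (-0.10) and Kif20b (0.13).

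The Ex3aERKO count rests on single arrays. Left out in turn, vehicle replicate 2 brought it to 1, vehicle replicate 3 to 10 and IGF1 replicate 2 to 5, and a vehicle group of 1 array is assumed to vary like the others. The median difference stayed between 0.44 and 0.81. The littermate count was 34, when 3.51% of all genes rose, and it fell to 7 without vehicle replicate 2, 3 without vehicle replicate 3, 20 without IGF1 replicate 1 and 22 without IGF1 replicate 3. The littermate median of 1.20 stayed between 1.13 and 1.24.

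In ERaUtcKO mice 10 members rose after 24 h of IGF1, when 16.9% of all genes rose, and 2 fell, when 15.5% did. The count of rises was thus near the background share, and the median over the 43 was 0.37 (1.30-fold). All IGF1 arrays lay above all vehicle arrays in 9 members, where 19.8% of all genes did, and below them in 2, where 23.0% did. Mki67 rose by 1.48 ± 0.48 (limma adjusted p = 0.0219), from 6.70, 6.99 and 6.26 to 6.88, 9.18 and 8.31, and Top2a by 1.40 ± 0.50, from 7.05, 7.44 and 6.86 to 7.16, 9.77 and 8.62. For both genes replicate 1 lay within the vehicle range and the other arrays above it. Smc2 (0.85 ± 0.17), Tpx2 (0.79), Cenpk (0.75), Ncapg (0.71), Ect2 (0.70), Ncaph (0.49), Ncapg2 (0.41) and Cenpn (0.26) rose too, so 6 of the 7 chromosome and condensin genes were among the 10.

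Smc4 and Cenpa went the other way. Smc4 fell by 0.31 ± 0.11 (adjusted p = 0.0342), from 11.77, 11.77 and 11.78 to 11.23, 11.62 and 11.56, and Cenpa by 0.38 ± 0.14 (adjusted p = 0.0461), from 7.16, 7.22 and 7.20 to 6.54, 7.03 and 6.86, with no overlap for either. None of the 8 kinases and CDK1 activators was called, with Cdk1 at 0.34 ± 0.22 and Plk1 at 0.01 ± 0.23. Kif11 differed by 0.80 ± 0.34, Ube2c by 0.55 ± 0.32 and Prc1 by 0.60 ± 0.28. Kif11 was 6.43, 6.51 and 6.34 under vehicle and 6.43, 7.99 and 7.27 after IGF1. Ube2c was 7.14, 8.43 and 8.13 after IGF1, Prc1 6.86, 8.17 and 7.69, Cdk1 6.20, 7.21 and 7.04 and Plk1 6.42, 7.37 and 6.93. Replicate 1 was the lowest and replicate 2 the highest for each of these genes.

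These counts too moved with single arrays. Without IGF1 replicate 1 of ERaUtcKO 26 members rose, without IGF1 replicate 2 it was 4, without IGF1 replicate 3 it was 6 and without vehicle replicate 3 it was 5. The 2 falls became 0 without any of the vehicle replicates 1, 2 or 3 or without IGF1 replicate 1, and 1 without IGF1 replicate 3. With each array centred on its median 16 rose and 0 fell. In the littermates 40 rose, when 16.8% of all genes did, and leaving out any array of either group gave 39 or 40.

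In both knockouts 6 members rose after IGF1, namely Mki67, Top2a, Ncapg, Smc2, Tpx2 and Cenpn, which is 30% of the 20 in Ex3aERKO and 60% of the 10 in ERaUtcKO. Of all 30142 genes 8.44% rose in both, which is 72% of those that rose in Ex3aERKO and 50.1% of those that rose in ERaUtcKO. The size of the rise across the 43 genes followed a similar order in knockout and littermates. Spearman rho was 0.86 in Ex3aERKO and 0.79 in ERaUtcKO, and Pearson r was 0.92 and 0.83. The E2 responses of knockout and littermate had rho = -0.17 in Ex3aERKO and -0.07 in ERaUtcKO, and r = -0.12 in both. No arrays are shared within these pairs, and the values describe order across genes alone.

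The part of the IGF1 response kept without ERα was 55.9% of the littermate median in Ex3aERKO and 28.4% in ERaUtcKO. Leaving out 1 array gave 36.9% to 67.3% in the first line and 13.4% to 48.7% in the second, in both lines lowest without knockout IGF1 replicate 2 and highest without its replicate 1. Over the 34 members called in Ex3aERKO littermates the part kept ran from 14.2% (Kif20b) to 126% (Aurka), and 23 kept more than 50%. Over the 40 called in ERaUtcKO littermates it ran from -4.10% (Kif2c) to 62.2% (Incenp), and 4 kept more than 50%. Members were picked by the littermate rise, which also divides the part kept, and the lists of the lines differ. Mki67 kept 87.9% and 48.0%, Top2a 80.7% and 43.5%, Ube2c 88.7% and 22.2%, Prc1 91.4% and 36.3%, and Cdk1 43.8% and 22.2%. The lines were not tested against each other. Tissue markers already differed under vehicle. In Ex3aERKO the log2 of the summed intensity of 13 epithelial markers was 15.02 to 15.17, against 13.82 to 14.26 in littermates. For 9 stromal markers it was 17.78 to 18.31, against 18.80 to 18.81. In ERaUtcKO the epithelial sums overlapped those of littermates, and the stromal sums were 18.03 to 18.11 against 18.32 to 18.45. The part of these differences in the share kept was not tested.

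**Figure D3:**
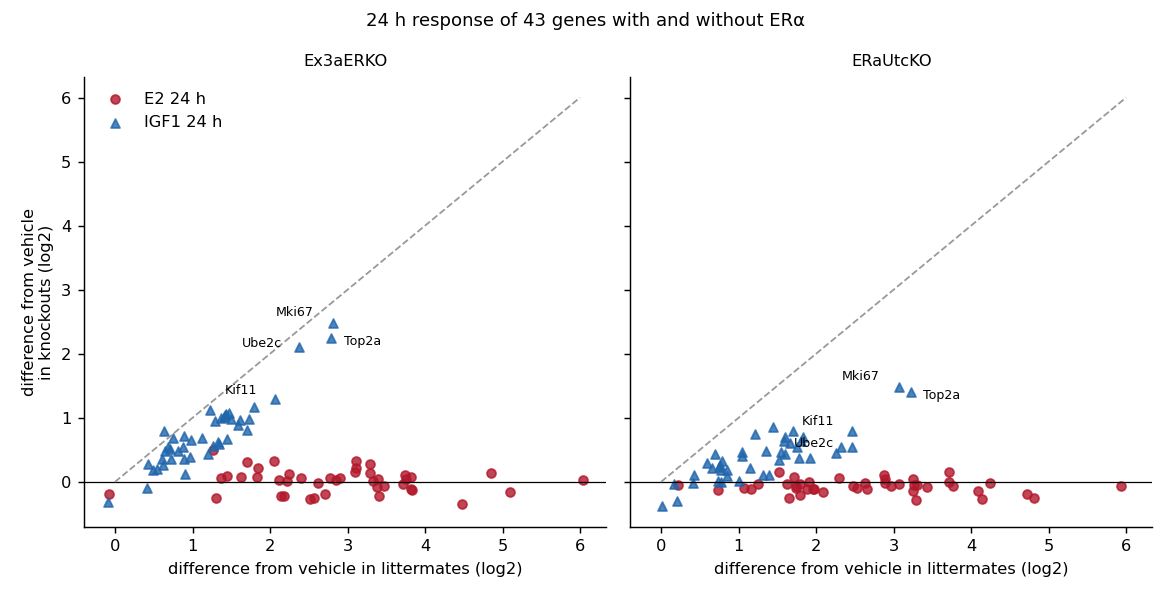
For each of the 43 genes, the 24 h difference from vehicle in the knockout (vertical axis, log2) against that in littermates (horizontal axis, log2), with the dashed line marking equal responses. E2 points (red) lie along 0 in both lines, while IGF1 points (blue) lie between 0 and the dashed line for most genes, with a median of 0.67 in Ex3aERKO and 0.37 in ERaUtcKO.

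Whether the IGF1 response itself was smaller without ERα was tested gene by gene. No member passed in either line, when 0.0133% of all genes were lower in Ex3aERKO and 0.0365% in ERaUtcKO. At an unadjusted p under 0.05 in limma, 6 members were lower in Ex3aERKO, when 3.55% of all genes were, and 35 in ERaUtcKO, when 3.79% were. The median difference was -0.37 and -0.90. In ERaUtcKO every member had a difference below 0. The nearest to the threshold were Ncaph, at -0.87 (adjusted p = 0.0532), Spc25, at -1.28 (adjusted p = 0.0556), and Kif15, at -1.55 (adjusted p = 0.0563), and the largest was Ube2c, at -1.92 (adjusted p = 0.115). Without IGF1 replicate 2 of ERaUtcKO 17 members passed, and without littermate vehicle replicate 3 it was 3. In Ex3aERKO the 95% intervals of the members reached from -2.36 to 1.57, so a p that misses the threshold does not show equal responses.

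Within the knockouts, in a comparison chosen after seeing the data, IGF1 left 14 members higher than E2 did at 24 h in Ex3aERKO (10.4% of all genes were higher) and 13 in ERaUtcKO (16.4% were). The Ex3aERKO count fell to 6 without E2 replicate 1, 3 without E2 replicate 3 and 5 without IGF1 replicate 2. The ERaUtcKO count was 29 without IGF1 replicate 1, 5 without IGF1 replicate 2, 8 without IGF1 replicate 3 and 6 without E2 replicate 1.

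**Figure D4:**
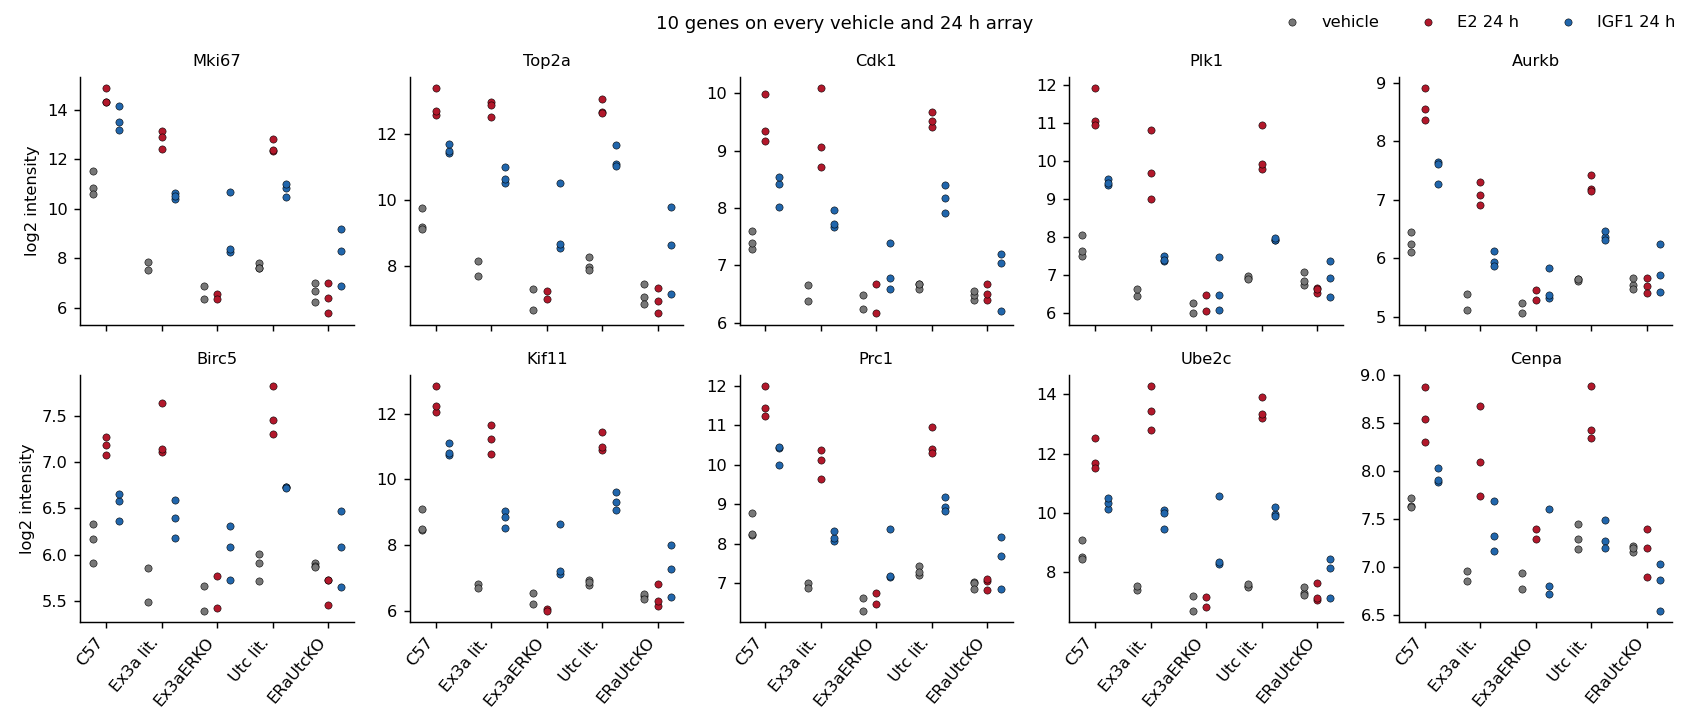
Level of 10 genes (log2 intensity, vertical axis, own scale in each panel) on every vehicle, 24 h E2 and 24 h IGF1 array, by kind of mouse (horizontal axis). In Ex3aERKO 1 IGF1 array stands above the others, at 10.69 for Mki67, and in ERaUtcKO the 3 IGF1 arrays spread from 6.88 to 9.18 for the same gene.

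Neighbouring gene groups of the cell cycle moved with the members in wild types, where 24.5% of all genes rose after E2 and 19.3% after IGF1. Of 10 spindle checkpoint genes 9 rose after 24 h of E2 and 9 after IGF1, with Bub1 at 3.18 and Zwint at 0.07 after E2. Of 8 mitotic cyclins and G2 regulators measured, 8 and 7 rose, led by Ccnb2 at 4.68 and 2.17. Among 21 DNA replication genes 20 and 19 rose, with medians of 1.73 and 0.77, and among 9 cell-cycle transcription factors 8 and 6, led by E2f8 at 3.04 and 1.38. Cohesin and separase genes were mixed, with 6 rising and 3 falling of 10 after E2. In the CDK inhibitors Cdkn1a rose by 1.76 and Cdkn1c fell by 1.07 after E2.

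In the knockouts IGF1 raised 11 of the 21 replication genes in Ex3aERKO and 13 in ERaUtcKO, when 11.7% and 16.9% of all genes rose. Orc1, an origin recognition subunit, was the lowest in ERaUtcKO at -0.68. Pcna, the sliding clamp of DNA polymerase, was the largest in both, at 1.25 and 1.26. Spindle checkpoint genes rose in 4 of 10 and 3 of 10 cases, and Ccnb2 rose by 1.64 in Ex3aERKO. After 24 h of E2 none of the genes of these lists was called in either knockout, when 0.0% of all genes were.

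Cell type markers also moved. In wild types 11 of 13 epithelial markers rose and 1 fell after 24 h of E2, and 4 rose and 1 fell after IGF1. The log2 of their summed intensity was 14.3 to 14.5 under vehicle, 16.1 after E2 and 14.3 to 14.6 after IGF1 in C57, and 13.7 to 14.3, 16.3 to 16.6 and 14.5 in the ERaUtcKO littermates. Smooth muscle markers rose 6 of 8 after E2, with 1 falling, and 8 of 8 after IGF1. Of 9 stromal markers 5 rose and 2 fell after E2, and 7 rose and 1 fell after IGF1, when 24.5% and 19.3% of all genes rose. Their log2 sum was lower after 24 h of E2 in both littermate sets, at 18.02 to 18.08 against 18.80 to 18.81 under vehicle in the Ex3aERKO littermates and 18.03 to 18.12 against 18.32 to 18.45 in the ERaUtcKO littermates, and it overlapped vehicle in C57. Of 8 macrophage markers 1 rose and 2 fell after E2 and 4 rose after IGF1, and of 6 neutrophil markers 1 rose and 1 fell, and 3 rose. T and NK cell markers fell 6 of 7 after E2 and 2 of 7 after IGF1, and no endothelial marker of 6 rose after E2. Of all 30142 genes 9546 fell after E2 and 6510 after IGF1. More cells of a type and more RNA per cell cannot be told apart in whole uterus, and the part of these shifts in the member responses was not tested.

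In the knockouts no epithelial marker was called after 24 h of E2, when 0.0% of all genes were. After IGF1, 4 of 13 epithelial, 6 of 9 stromal and 1 of 8 smooth muscle markers rose in Ex3aERKO, when 11.7% of all genes rose. In ERaUtcKO 7 of each list rose, when 16.9% of all genes did. Dcn, a stromal proteoglycan of high level, went the other way, and the log2 sum of the stromal markers was 17.8 and 18.3 under vehicle and 16.2 to 16.7 after IGF1 in Ex3aERKO. The Ex3aERKO array with the highest members, IGF1 replicate 2, had the lowest epithelial sum of its group, 14.8 against 15.6 and 15.8, and the highest smooth muscle sum, 19.0 against 17.9 and 18.1. The ERaUtcKO array with the lowest members, IGF1 replicate 1, had epithelial sums of 14.3 against 14.8 and 14.7, and smooth muscle sums of 19.5 against 19.3 and 19.0. Some immune cell markers differed on these arrays too. The T and NK cell sum did not stand apart, at 8.74 on IGF1 replicate 2 of Ex3aERKO against 8.79 and 8.65. On IGF1 replicate 2 of Ex3aERKO the log2 sum of the 6 neutrophil markers was 16.02, against 10.97 and 11.63 on the other IGF1 arrays and 8.49 and 9.49 under vehicle. The macrophage sum was 12.1 on that array, against 11.4 and 11.6. The neutrophil sum rested on S100a8 and S100a9, the latter at 15.02 there against 9.07 and 10.16. Csf3r was also higher, at 6.84 against 5.66 or less, while Ly6g, a defining neutrophil marker, was at 5.45 against 6.10 and 5.61 and Mmp8 at 4.68 against 4.80 and 4.73. Retnlg was at 6.2, between 5.7 and 6.5. Without that array 5 members rose and the median difference was 0.44.

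In ERaUtcKO, IGF1 replicate 1 had the lowest neutrophil sum of its group, 11.4 against 12.7 and 15.1, with 10.1 to 11.1 under vehicle. The highest neutrophil sum was on replicate 3, while the members were highest on replicate 2. An E2 array of this line, replicate 2, also had a high neutrophil sum, 14.3 against 8.68 and 9.95, with its member median of 6.65 beside 6.28 and 6.62. Beyond these values the part of the marker differences in the counts was not tested.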

How the data were processed

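Uterine RNA of 68 samples was labelled with the Affymetrix WT Plus kit, per the labels. The deposited values are log2 intensities of 72688 probe sets as the authors summarised them, and the sources used here do not state how they were normalized. In 7 of the 25 groups 2 arrays stand for 3, because an array apart in a principal component analysis was dropped before deposit, per the series' design text, so the spread there may be understated. Of the probe sets, 30604 carried 1 symbol, and each of 30142 genes was represented by its brightest probe set over all arrays.

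Models were fitted in limma 3.58.1 (R 4.3.3), with treatment and mouse set for the 42 arrays of wild types (35 residual degrees of freedom). Group means were fitted for 25 Ex3aERKO arrays (15) and 29 ERaUtcKO arrays (19). Adjustment was by Benjamini-Hochberg over all genes, and the fits were tested on simulated data. For E2 at 24 h in the knockout, a simulated difference of 0.5 was recovered in 20% of genes in Ex3aERKO and 48% in ERaUtcKO. For the knockout-littermate difference in IGF1 response at 24 h it was 4% and 26%. A difference of 2 was recovered in 98% and 98%, and in 94% and 100%. Members, roles and lists were chosen with earlier results of these data known. The comparisons of C57 with the littermate sets and of IGF1 with E2 within a knockout were added after seeing the data. The genes named were 10 listed in the design, plus the 3 largest, the 3 smallest and the exceptions in each comparison and role; values on single arrays for Cdc25b, Tpx2, Kif23 and Kif20b at 2 h were chosen after they were seen. Replicate numbers did not pair the samples, since same-numbered samples had median correlations of -0.14 to 0.01. Alternatives were centring, quantile normalization, a filter on level, a trended robust prior, the mean over probe sets, a replicate block and leaving out arrays or sets.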

Additional observations from a re-analysis of the deposited data

Results flagged for a closer look

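Differences between groups under the same contrast drew attention in 7 results, each by a test of the difference itself. For E2 at 24 h, 41 members in Ex3aERKO and 42 in ERaUtcKO responded less in the knockout than in littermates. Of all genes 10.5% and 15.5% were lower in that test. At 2 h after E2, Cdc25b responded differently in knockout and littermates by 1.16 in Ex3aERKO and by 0.60 in ERaUtcKO. In that direction 4.58% and 6.7% of all genes passed. Between wild-type sets, 4 members responded more and 6 less to 24 h of E2 in C57 than in the littermates of the lines. Of all genes 5.08% responded more and 6.17% less. To 24 h of IGF1, 2 members responded more in C57, when 0.823% of all genes did. No group held more than 3 arrays, so no test for an outlying array was run, and arrays that stood apart are described with the results they touch.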

How the results depend on the processing

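For 24 h of E2, every alternative run gave 42 members raised in wild types and 0 called in either knockout. The knockout-littermate difference had 41 members lower in Ex3aERKO throughout and 42 in ERaUtcKO, or 41 after quantile normalization. IGF1 at 24 h raised 41 or 42 members in wild types when any array was left out. No result reversed. Over called members and alternatives, 7207 results stayed past the threshold and 287 did not.

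Counts after 2 h of E2 in wild types were 4 up and 4 down, when 17.2% of all genes rose and 22.8% fell. The count up was 2 without the Ex3aERKO set, 2 without the ERaUtcKO set, 2 in C57 alone and 1 in the Ex3aERKO set alone. The count down was 2 after centring, after quantile normalization, without the C57 set, without the ERaUtcKO set and in the C57 or ERaUtcKO set alone, and 1 in the Ex3aERKO set alone. After 2 h of IGF1 the count up was 0, when 16.9% of all genes rose. It was 2 after centring or quantile normalization, and 1 with the level filter, without the C57 set or in the Ex3aERKO set alone. The count down was 4, when 19.0% of all genes fell, and became 1 in C57 alone and 0 in the Ex3aERKO set alone. Leaving out an array gave 0 to 2 members up after IGF1 for 2 h.

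In Ex3aERKO, IGF1 against E2 at 24 h gave 23 members after quantile normalization and 9 with the replicate block, and 3 to 20 without an array. Under vehicle 1 member was higher after quantile normalization or the level filter. After 24 h of IGF1, leaving out an array gave 1 to 22 members in the knockout and 3 to 29 in littermates. In ERaUtcKO centring gave 16 up and 0 down after IGF1, and quantile normalization 1 down. Leaving out an array gave 4 to 26 up and 0 to 2 down, a median of 0.18 to 0.64 and a part kept of 13.4% to 48.7%. The knockout-littermate difference for IGF1 had 2 members lower after centring, 3 with the level filter and 0 to 17 without an array, and IGF1 against E2 gave 5 to 29. The cause of these changes was not tested, apart from the smaller groups that leaving out arrays makes.

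With the replicate number as a block, IGF1 raised 18 members in Ex3aERKO and 12 in ERaUtcKO, and numbers did not pair the samples. Signal near background limits low members.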
